A study of Arabidopsis thaliana with 10 samples.

Results

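The average effect of mutating components of the autonomous-pathway complex was taken over 4 mutants of *Arabidopsis thaliana*, *fld*, *ld*, *efl2 efl4* and *sdg26 aprf1*. The members are the 8 mutant samples of the 10 RNA-seq samples, 2 from each of 4 of the 5 genotypes, and they were chosen by their genotype labels. Their mean was compared with the 2 samples of the wild type Col-0. All 10 samples came from whole seedlings, 10 days old, grown on MS plates at 23°C with 16 h of light and 8 h of dark, and no other treatment separated the groups. *fld*, *ld*, *sdg26* and *aprf1-9* are T-DNA insertion lines, and *efl2* and *efl4* carry small deletions made with CRISPR/Cas9 and were combined by crossing. Each genotype is therefore 1 line, all in the Col-0 background, and *sdg26 aprf1* and *efl2 efl4* lack a pair of genes each. The study calls the samples of a genotype independent replicates, without saying at which step they were separate. The *p*-values measure the spread left between them once the shift shared by all replicates of a number is removed. That spread is pooled over the 5 genotypes.

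In *Arabidopsis*, the autonomous pathway keeps *FLC* low. *FLC* encodes a MADS-box repressor that holds back the flowering promoters *FT*, the mobile signal made in leaves, and *SOC1*, a MADS-box activator in the shoot apex. FLD is a homolog of a histone demethylase, LD a homeodomain protein, SDG26 a SET-domain protein, APRF1 a WD40-repeat protein, and EFL2 and EFL4 are small relatives of the clock protein ELF4. A difference that the 4 mutants have in common shows in their average, while a difference in 1 mutant is diluted in it.

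Depth was even, at 20455413 to 20768023 reads on genes per sample, and 23207 to 23570 genes had a read. Values are normalised reads, scaled over the 10 samples by TMM, and the log2FC is the mean log2(normalised reads + 1) of the 4 mutants minus that of Col-0. Genes with a mean of at least 10 normalised reads were tested, 20050 of 32548. The test was limma with the replicate number as a block, since the replicates 1 of all genotypes deviated together from the replicates 2, and 5815 genes differed between the replicate numbers. A mean over whole seedlings cannot tell a change in the cells that express a gene from a change in the number of those cells. Root markers, summed over 12 genes, lay at 4970 to 5932 normalised reads in Col-0 and 4762 to 6547 in the mutants, and none of the 12 was called. Much of these sums came from *IRT1* and *SCR*, and *IRT1* differed among the mutants (limma F test, adjusted *p* = 0.00755). Gene by gene, the log2FC of the 12 lay between −0.36 and 0.13, with a median of −0.07. The 5 floral organ markers listed summed to at most 38.7 in any sample. *SEP3*, counted with the flowering genes below, averaged 101 in Col-0 and 78.4 in the mutants. Of 3 shoot meristem markers, *WUS* had no read and *CLV3* at most 1.01 normalised reads. *STM* had 18 and 10.9 in Col-0 and 9.95 to 28.3 in the mutants, and was not called. Among 3 seed markers, *CRA1*, a seed storage protein, had 106 normalised reads in the second *efl2 efl4* sample and at most 7.95 in each of the others.

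On average over the 4 mutants, 257 genes rose and 145 fell (limma adjusted *p* under 0.05), which is 1.28% and 0.723% of the 20050 genes tested. Most of these differences were small. Only 53 of the rises and 24 of the falls reached 1 on the log2 scale, and 176 of the 402 genes called changed by less than 0.5. The median log2FC of the genes that rose was 0.57, that of the genes that fell −0.54, and that of all genes tested 0.00, with a middle 95% from −0.43 to 0.48. Without using the test, 605 genes (3.02%) had all 8 mutant samples above both Col-0 samples and 540 (2.69%) had all 8 below both. Of the genes called, 157 of the rises and 84 of the falls were free of overlap in this way. The filter weighed Col-0 lightly, as 2 of 10 samples. It let 195 genes with a Col-0 mean under 10 normalised reads into the test, of which 16 rose. With equal weight for Col-0 and the mutants, a filter chosen after seeing the data, 253 genes rose and 146 fell.

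The number of genes called depended on the model and on Col-0. Without the replicate block, limma called 24 rises and 13 falls, all 37 among the 402. With the 8 mutant samples as 1 group, so that the spread among the mutants counted as error, it called 44 and 18. The quasi-likelihood test of edgeR on the recovered reads called 214 rises and 181 falls, and 359 of the 402 genes were called by both. DESeq2 called 161 rises and 120 falls, with 253 of the 402 genes among them. Together, limma, edgeR and DESeq2 shared 246 genes. Leaving out the first Col-0 sample left 95 rises and 45 falls, and leaving out the second left 58 and 21. The 2 Col-0 samples enter every difference from Col-0 reported here. Tests among the mutants do not use the Col-0 mean, and Col-0 enters them only through the replicate block and the pooled spread.

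**Figure D1:**
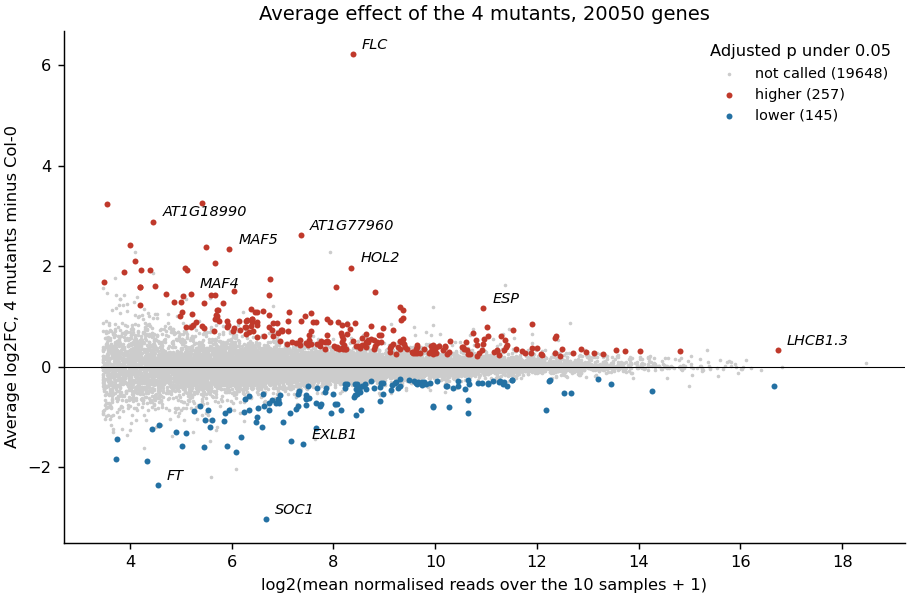
Average log2FC of the 4 mutants minus Col-0 (vertical axis) against log2 of the mean normalised reads over the 10 samples plus 1 (horizontal axis), 1 point per gene tested. *FLC* stands alone at 6.21, *SOC1* and *FT* are the lowest points at −3.04 and −2.36, and most of the 257 genes called higher (red) and 145 called lower (blue) lie within 1 of 0.

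*FLC* (AT5G10140, chromosome 5) rose most. It had 4.0 and 3.95 normalised reads in Col-0, 493 and 522 in *ld*, 622 and 609 in *fld*, 166 and 143 in *sdg26 aprf1* and 370.5 and 388 in *efl2 efl4*. Every mutant sample exceeded Col-0, where the gene was barely detected, and the mutants followed the order *fld*, *ld*, *efl2 efl4* and *sdg26 aprf1* with no overlap between neighbours in it. The average log2FC was 6.21 ± 0.09 (SE; limma adjusted *p* = 2.89e-10), and the mutant mean was 104 times the Col-0 mean. Because log2(reads + 1) is pulled towards 0 for a gene this low in Col-0, the log2FC understates that ratio. The mutants differed in the size of the rise, with log2FC values of 6.68 in *ld*, 6.95 in *fld*, 4.96 in *sdg26 aprf1* and 6.26 in *efl2 efl4* (limma F test among the mutants, adjusted *p* = 1.14e-04). An annotated antisense transcript overlaps *FLC*, and whether the counting used strand is not given in the sources used here, so reads of the pair may be mixed. The next gene on the chromosome, AT5G10150, also rose, by 0.50 (limma adjusted *p* = 0.0278).

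The *FLC* clade has 5 further members, the *MAF* genes, which encode MADS-box proteins close to FLC. *MAF5* had 11 and 13.8 normalised reads in Col-0, 44.4 and 78.5 in *ld*, 77.5 and 94.1 in *fld*, 44.3 and 29.8 in *sdg26 aprf1* and 103 and 112 in *efl2 efl4*. All mutant samples lay above Col-0, and the average rise was 2.34 ± 0.22 (SE; limma adjusted *p* = 7.48e-04). *MAF4*, its neighbour, had 15 and 11.9 normalised reads in Col-0, 36.3 and 52 in *ld*, 47.7 and 46 in *fld*, 24.2 and 14.9 in *sdg26 aprf1* and 56.8 and 52.7 in *efl2 efl4*. It rose by 1.45 ± 0.22 (SE; limma adjusted *p* = 0.0113), but a *sdg26 aprf1* sample lay within the Col-0 range, and its call was lost without either Col-0 sample. For *MAF1*, *MAF2* and *MAF3* no average difference was detected, with log2FC values of 0.20 ± 0.08, 0.17 ± 0.06 and 0.01 ± 0.11 (SE; limma adjusted *p* = 0.322, 0.224 and 0.98). Thus 3 of the 6 genes of the clade rose and 0 fell. *MAF2* to *MAF5* stand side by side on chromosome 5, and the called pair is the end of that row.

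The targets of *FLC* fell. *SOC1* had 267 and 309 normalised reads in Col-0, 23.2 and 20.4 in *ld*, 12.9 and 16 in *fld*, 175 and 134 in *sdg26 aprf1* and 31.9 and 22.9 in *efl2 efl4*, and the average log2FC was -3.04 ± 0.18 (SE; limma adjusted *p* = 5.14e-05). *FT* had 51 and 62.2 normalised reads in Col-0, 5.04 and 8.15 in *ld*, 2.98 and 6.0 in *fld*, 40.3 and 27.8 in *sdg26 aprf1* and 11 and 9.95 in *efl2 efl4*, and its average log2FC was -2.36 ± 0.30 (SE; limma adjusted *p* = 0.00488). All mutant samples of both genes lay below Col-0, with *sdg26 aprf1* nearest to it. Both falls differed among the mutants (limma F test, adjusted *p* = 2.28e-04 for *SOC1* and 0.0176 for *FT*), with log2FC values for *SOC1* of -3.66 in *ld*, -4.23 in *fld*, -0.90 in *sdg26 aprf1* and -3.36 in *efl2 efl4*, and for *FT* of -2.95 in *ld*, -3.44 in *fld*, -0.73 in *sdg26 aprf1* and -2.33 in *efl2 efl4*. At the lowest, *FT* stood on about 2.98 reads, so its differences between mutants are imprecise. *FT* missed the threshold without the first Col-0 sample (log2FC −2.41, limma adjusted *p* = 0.0555) and without the second (−2.32, 0.0724). With the 8 mutant samples as 1 group, *FT*, *SOC1* and *MAF5* all missed it, at 0.254, 0.215 and 0.0510, while *FLC* did not.

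MADS-box proteins such as FLC bind CArG boxes, here searched as CC, then 6 bases that are A or T, then GG, a pattern that reads the same way on both strands. *SOC1* and *FT* each hold 1 match in the stretches searched (1000 bases upstream of the annotated gene start, and the gene itself), and these matches are shown with 10 bases on each side, in TAIR10.1, 5′ to 3′ on the strand of the gene, with the box in capitals.
SOC1, chromosome 2, 18811817 to 18811846, minus strand, 702 bases upstream of the gene start: aattttatctCCAAAAAAGGatattttttt
FT, chromosome 1, 24331791 to 24331820, plus strand, 429 bases into the gene in an intron: aaattattttCCTTTTTTGGggtatactga
A match is a description of the letters and not a binding site. Upstream windows with a match made up 7.27% of those of all genes tested, 10.1% of those of the 257 genes that rose and 6.90% of those of the 145 that fell. Among the genes called with a change of at least 1, 8 of 53 that rose had a match (15.1%) and 1 of 24 that fell (4.17%), which was *SOC1*. Among the other genes named, the upstream windows of AT4G29990, a receptor-like kinase gene that rose, and of *MAF1*, which was not called, also hold 1 each.

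**Figure D2:**
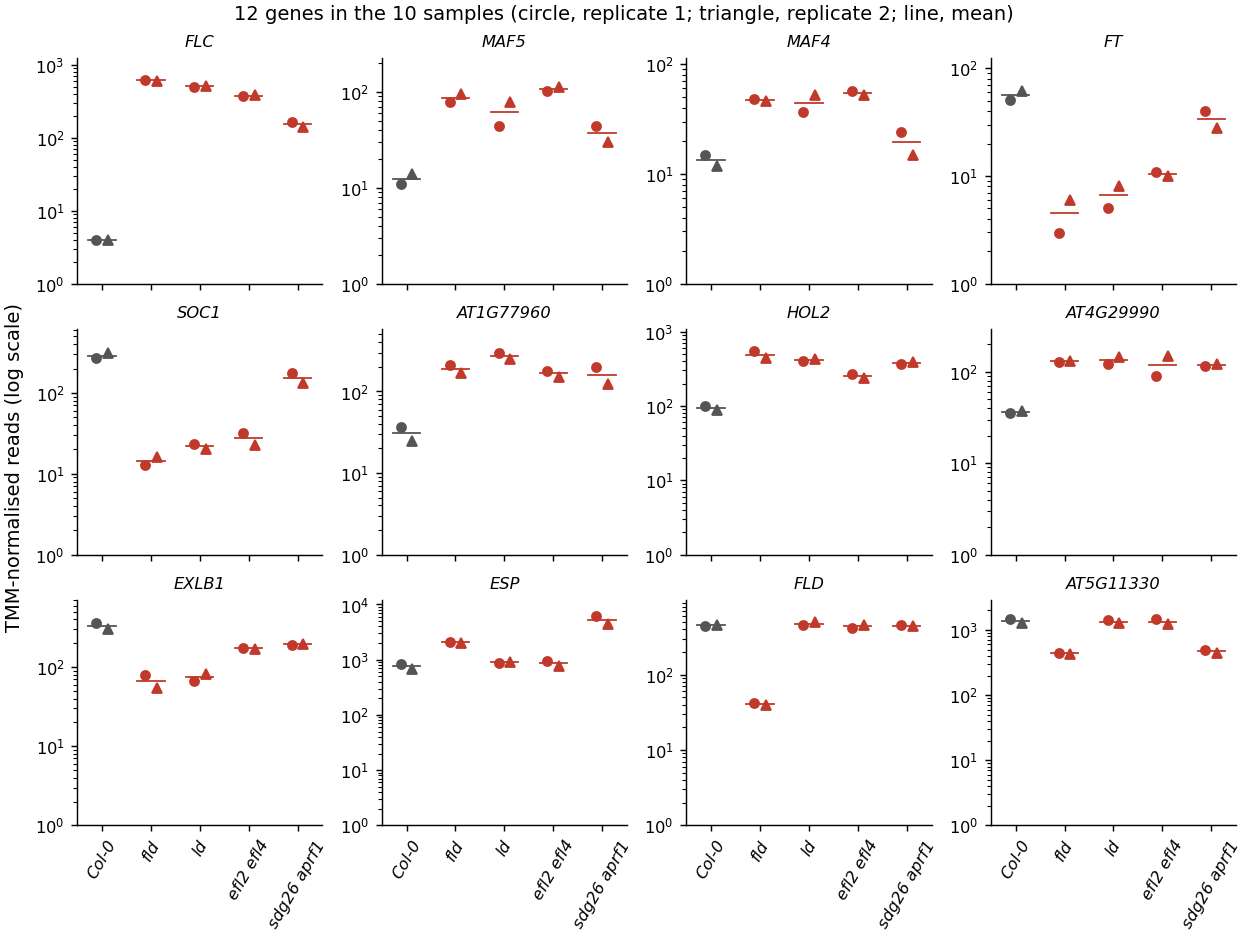
TMM-normalised reads (log axis) of 12 genes in each of the 10 samples, grey for Col-0 and red for the mutants, with circles for replicate 1, triangles for replicate 2 and a line at the mean of each genotype. *FLC*, *MAF5*, AT1G77960, *HOL2* and AT4G29990 are higher in every mutant sample, *FT*, *SOC1* and *EXLB1* lower in every one, while *ESP*, *FLD* and AT5G11330 change in some mutants only.

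Of the other flowering genes listed, none was called on average. Counts in this paragraph are to be read beside the 1.28% of all genes tested that rose and the 0.723% that fell. At these shares, lists this small hold few calls or none. *FUL*, a MADS-box promoter of flowering, had 33 and 42.5 normalised reads in Col-0, 20.2 and 8.15 in *ld*, 13.9 and 14 in *fld*, 39.3 and 25.8 in *sdg26 aprf1* and 11 and 9.95 in *efl2 efl4*. Its log2FC was -1.20 ± 0.30 (SE), short of the threshold in limma (adjusted *p* = 0.0794) and past it in edgeR (0.0475). Of 17 genes listed for flowering promotion and meristem identity, 11 were expressed enough to be tested, and 2 fell, *FT* and *SOC1*, with a list median of −0.44 beside 0.00 over all genes. This list also holds the repressor *SVP* and *TFL1* (−0.65), so its median is not that of promoters alone. *SPL5*, a target of miR156 that promotes flowering, had a log2FC of -0.97 (limma adjusted *p* = 0.18), and 0 of 7 such *SPL* genes tested were called. *SVP*, a repressor that works with FLC, stood at -0.27 (0.0708). The AP2-like and TEM repressors of *FT* gave 0 of 8, and the photoperiod and clock genes 0 of 17. Upstream of *FLC*, the 8 other autonomous-pathway genes (*FCA*, *FPA*, *FY*, *FLK*, *FVE* and others) had log2FC values between −0.09 and 0.25 and the 22 chromatin activators and repressors of *FLC* between −0.13 and 0.25, none of them called. The largest of the first, *FPA*, an RNA-binding protein, was at 0.25 (limma adjusted *p* = 0.106).

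The largest rises after *FLC* were named where the samples did not overlap and the higher group had at least 20 normalised reads. They were genes of varied annotation, and for most no function is given by name. AT1G18990, annotated as a putative myosin-binding protein, had 1 and 4.94 normalised reads in Col-0, 26.2 and 31.6 in *ld*, 20.9 and 31 in *fld*, 28.2 and 23.8 in *sdg26 aprf1* and 31.9 and 10.9 in *efl2 efl4*, a rise of 2.89 ± 0.45 (SE; limma adjusted *p* = 0.012). Its log2FC was 1.99 without the first Col-0 sample, where its call was lost, and 3.78 without the second. AT1G77960, annotated as a ROX1-like repressor, had 37 and 24.7 normalised reads in Col-0, 293 and 247 in *ld*, 213 and 166 in *fld*, 200.3 and 122 in *sdg26 aprf1* and 180.3 and 152 in *efl2 efl4*. It rose by 2.61 ± 0.11 (SE; limma adjusted *p* = 6.16e-06), the second smallest *p* of all genes, and its call held in all 27 alternatives. AT1G77960 overlaps a gene on the other strand, AT1G77950, and AT1G18990 overlaps one on the same strand, AT1G19000, so reads may be shared within each pair. *HOL2*, a relative of the methyltransferase HOL1 that acts on halides and thiocyanate, had 101 and 87.9 normalised reads in Col-0, 402 and 427 in *ld*, 545 and 437 in *fld*, 366 and 385 in *sdg26 aprf1* and 269 and 235 in *efl2 efl4*. The rise of *HOL2* was 1.97 ± 0.09 (SE; limma adjusted *p* = 7.40e-06) and differed in size among the mutants (limma F test, adjusted *p* = 0.00977), lowest in *efl2 efl4*.

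AT5G44980, an F-box protein, had 12 and 13.8 normalised reads in Col-0, 42.4 and 49.9 in *ld*, 46.7 and 42 in *fld*, 79.5 and 84.4 in *sdg26 aprf1* and 65.7 and 61.7 in *efl2 efl4*, and rose by 2.07 ± 0.15 (SE; limma adjusted *p* = 2.69e-04). AT4G29990, a leucine-rich repeat receptor kinase, had 35 and 37.5 normalised reads in Col-0, 122 and 147 in *ld*, 129 and 131 in *fld*, 115 and 120.2 in *sdg26 aprf1* and 90.6 and 147 in *efl2 efl4*. Its average rise of 1.75 ± 0.14 (SE; limma adjusted *p* = 3.16e-04) was spread evenly, with log2FC values of 1.86 in *ld*, 1.82 in *fld*, 1.67 in *sdg26 aprf1* and 1.65 in *efl2 efl4*. *EMB975*, a tetratricopeptide repeat protein gene, had 87 and 102 normalised reads in Col-0, 251 and 329 in *ld*, 192 and 313 in *fld*, 483 and 488 in *sdg26 aprf1* and 186 and 197 in *efl2 efl4*, rose by 1.59 ± 0.12 (SE; limma adjusted *p* = 2.88e-04) and rose most in *sdg26 aprf1* (limma F test among the mutants, adjusted *p* = 0.00755); 2 annotated genes overlap it on the other strand. Each of these genes was found above Col-0 in all 8 mutant samples, as the naming rule required.

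The remaining rises named rest on fewer reads or spread more. AT1G52990, a thioredoxin family gene, rose by 1.96 ± 0.25 (SE; limma adjusted *p* = 0.00527) from 10.0 and 6.92 normalised reads in Col-0 against 15.9 to 80.7 in the mutants, with a median of 37. AT4G00250, a storekeeper-related DNA-binding protein gene, rose by 1.92 ± 0.25 (SE; limma adjusted *p* = 0.00527) from 7.0 and 3.95 normalised reads in Col-0 to 14.3 to 33.8 in the mutants. AT2G21260, an oxidoreductase gene, rose by 1.92 ± 0.30 (SE; limma adjusted *p* = 0.0114) from 6.0 and 13.8 normalised reads in Col-0 against 21.9 to 64.6 in the mutants, with a median of 36.9. AT4G15953 rose by 1.59 ± 0.27 (SE; limma adjusted *p* = 0.0171) from 7.0 and 4.94 normalised reads in Col-0 to 15.1 to 30.6 in the mutants, and *KCS21*, an enzyme family that elongates very long fatty acids, by 1.58 ± 0.33 (SE; limma adjusted *p* = 0.0435) from 4.0 and 7.90 to 10.1 to 32.8, a call lost under 16 of its 26 alternatives. These 5 genes, and AT1G18990 and *FLC* above, have a Col-0 mean of less than 10 normalised reads and passed the filter through the mutants. AT1G62510, a lipid-transfer-like protein gene, rose by 1.51 ± 0.20 (SE; limma adjusted *p* = 0.00598) from 19 and 31.6 normalised reads in Col-0 against 40.8 to 96.8 in the mutants, with a median of 79. *PHI-1*, of the EXORDIUM family, rose by 1.48 ± 0.25 (SE; limma adjusted *p* = 0.0171), with log2FC values of 1.97 in *ld*, 0.47 in *fld*, 1.92 in *sdg26 aprf1* and 1.57 in *efl2 efl4*, and had 178 and 301 normalised reads in *fld* against 169 and 164 in Col-0, close in the first replicate but not in the second.

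**Figure D3:**
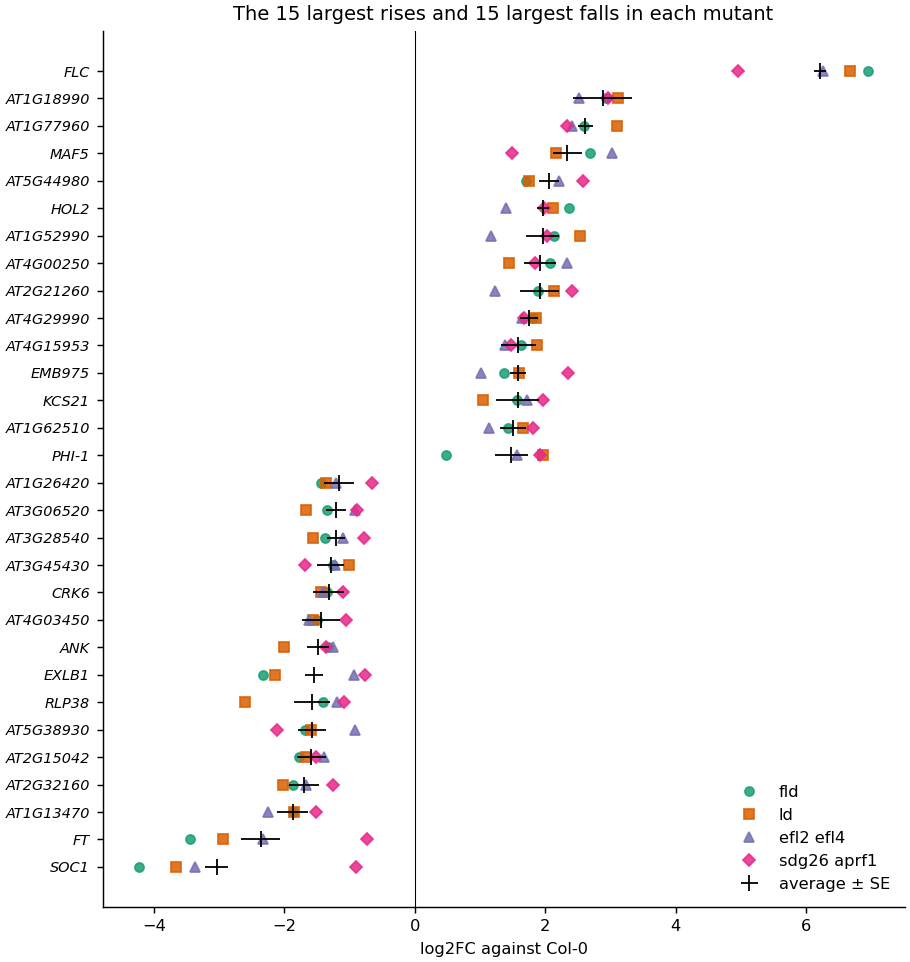
log2FC against Col-0 (horizontal axis) in each mutant for the 15 largest rises and 15 largest falls (rows), with a black mark for the average and its SE. Rows are limited to called genes without overlap of mutant and Col-0 samples and with at least 20 normalised reads in the higher group. *sdg26 aprf1* (diamonds) lies nearest to 0 for *FLC*, *MAF5*, *FT* and *SOC1*, at 4.96, 1.49, −0.73 and −0.90, and lies farthest from 0 for *EMB975* at 2.36 and AT5G38930 at −2.12.

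After *SOC1* and *FT*, the largest falls chosen by the same rule were of genes with varied annotation. AT1G13470, a protein of unknown function, had 54 and 39.5 normalised reads in Col-0, 13.1 and 11.2 in *ld*, 12.9 and 11 in *fld*, 16.1 and 14.9 in *sdg26 aprf1* and 7.97 and 9.95 in *efl2 efl4*, and fell with a log2FC of -1.87 ± 0.24 (SE; limma adjusted *p* = 0.00527). *EXLB1*, an expansin-like protein gene, had 356 and 305 normalised reads in Col-0, 66.6 and 81.5 in *ld*, 78.5 and 54 in *fld*, 192 and 198 in *sdg26 aprf1* and 174 and 170.1 in *efl2 efl4*. Its log2FC was -1.54 ± 0.14 (SE; limma adjusted *p* = 5.85e-04), and the fall was larger in *fld* and *ld* than in the others (limma F test, adjusted *p* = 0.00202). *ANK*, an ankyrin-repeat protein gene, had 274 and 305 normalised reads in Col-0, 91.8 and 55 in *ld*, 120.3 and 110.1 in *fld*, 129.9 and 97.3 in *sdg26 aprf1* and 109 and 134 in *efl2 efl4*, with a log2FC of -1.48 ± 0.17 (SE; limma adjusted *p* = 0.00346). All mutant samples of these genes were below both Col-0 samples, as the naming rule required.

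AT2G32160, a methyltransferase gene, had a log2FC of -1.70 ± 0.24 (SE; limma adjusted *p* = 0.0073), from 139.9 and 155 normalised reads in Col-0 against 27.5 to 83.6 in the mutants, with a median of 42.4. AT2G15042, a leucine-rich repeat protein gene, had one of -1.59 ± 0.22 (SE; limma adjusted *p* = 0.00741), from 64 and 127 normalised reads in Col-0 against 19.9 to 36.8 in the mutants, with a median of 31.9. AT5G38930, a cupin related to germins, had one of -1.57 ± 0.22 (SE; limma adjusted *p* = 0.00693), from 56 and 78 normalised reads in Col-0 against 14.1 to 38.8 in the mutants, with a median of 19.9. For *RLP38*, a receptor-like protein, it was -1.57 ± 0.28 (SE; limma adjusted *p* = 0.0206), from a Col-0 mean of 121 ± 29.2 (SD, n = 2) to 13.2 to 67.7 in the mutants. *CRK6*, a cysteine-rich receptor-like kinase, was at -1.32 ± 0.24 (SE; limma adjusted *p* = 0.0221), and AT3G45430, a lectin receptor kinase, at -1.29 ± 0.21 (SE; limma adjusted *p* = 0.0152). Only 78.1% of the 50-base windows of *CRK6* exons occur once in the genome, so reads may be shared with its relatives. The other falls named were AT4G03450 (ankyrin repeats, -1.43), AT3G28540 (a P-loop hydrolase, -1.21), AT3G06520 (an agenet-domain protein, -1.20) and AT1G26420 (a berberine-type oxidase, -1.16), all called in limma. The calls of AT4G03450 and AT1G26420 were lost under 15 and 13 of 26 alternatives.

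Some averages were carried by 1 or 2 mutants. *FLD* had 449.8 and 461 normalised reads in Col-0, 455 and 495 in *ld*, 42.7 and 40.0 in *fld*, 454 and 444 in *sdg26 aprf1* and 422 and 453 in *efl2 efl4*. Its average log2FC of -0.86 ± 0.07 (SE; limma adjusted *p* = 3.81e-04) came from *fld* alone, the line in which it is disrupted. *SDG26*, likewise, was at 50.3 and 54.6 normalised reads in *sdg26 aprf1* and at 265 to 351 in every other sample, for an average of -0.55 ± 0.08 (SE; limma adjusted *p* = 0.00837). *LD* was at 389 and 432 in *ld* and at 643 to 765 in the others, and *APRF1* at 101 and 87.4 in *sdg26 aprf1* against 146 and 175 in Col-0, and neither was called on average. *EFL2* stood at 112 and 146 and *EFL4* at 112 and 90.5 in *efl2 efl4*, against 162 and 204 and 116 and 148 in Col-0, where small deletions need not lower the RNA. The gene beside *SDG26*, AT1G76720, fell on average by 0.91 on the log2 scale (limma adjusted *p* = 0.0171), with log2FC values of -1.08 in *ld*, -1.37 in *fld*, -0.25 in *sdg26 aprf1* and -0.96 in *efl2 efl4*.

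Of all genes tested, 507 (2.53%) differed among the 4 mutants, 102 of them called on average (*FLD* and *SDG26* included), which is 25.4% of the 402 and 20.1% of the 507. AT5G11330, an oxidoreductase gene, had 1461 and 1279 normalised reads in Col-0, 1438 and 1263 in *ld*, 442 and 432 in *fld*, 491 and 449 in *sdg26 aprf1* and 1459 and 1242 in *efl2 efl4*. It was low in *fld* and *sdg26 aprf1* only, and its average of -0.81 ± 0.05 (SE; limma adjusted *p* = 1.21e-04) describes no single mutant. AT3G05945, a non-coding RNA, had 211 and 264 normalised reads in Col-0, 254 and 311 in *ld*, 250.5 and 297 in *fld*, 200.3 and 211 in *sdg26 aprf1* and 6.97 and 4.97 in *efl2 efl4*, with a fall in *efl2 efl4* alone and an average of -1.21 ± 0.14 (SE; limma adjusted *p* = 0.00346). *ESP*, the epithiospecifier protein that directs glucosinolates to nitriles, had 841 and 678 normalised reads in Col-0, 887 and 925 in *ld*, 2097 and 2030.5 in *fld*, 6103 and 4416 in *sdg26 aprf1* and 951 and 768 in *efl2 efl4*. Its average rise of 1.17 ± 0.09 (SE; limma adjusted *p* = 2.69e-04) was carried by *sdg26 aprf1* and *fld*. *bHLH38*, a transcription factor of iron uptake, had 322 and 176 normalised reads in Col-0, 426 and 130.4 in *ld*, 312 and 161 in *fld*, 388 and 152 in *sdg26 aprf1* and 49.8 and 19.9 in *efl2 efl4*, and its average of -0.74 ± 0.14 (SE; limma adjusted *p* = 0.0325), a call lost under 11 of 27 alternatives, came from *efl2 efl4*. AT1G31690, a copper amine oxidase gene, spread from 0.29 in *fld* to -0.91 in *efl2 efl4*, with an average of -0.27 ± 0.05 (SE; limma adjusted *p* = 0.0189). Singled out after its values were seen, AT1G64795 had 1 and 0 normalised reads in Col-0, 107 and 109 in *ld*, 87.5 and 108 in *fld*, 4.03 and 0.993 in *sdg26 aprf1* and 0 and 0 in *efl2 efl4*. Its average log2FC of 3.26 was called in limma (adjusted *p* = 0.00406) but not in edgeR (1), and only *fld* and *ld* had more than a few reads.

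For the 257 genes that rose, the median log2FC was 0.69 in *sdg26 aprf1*, 0.61 in *ld*, 0.51 in *fld* and 0.51 in *efl2 efl4*. For the 145 that fell it was −0.48, −0.57, −0.48 and −0.54 in the same order. These values chose the genes and are a description. The mutant with the largest rise was *sdg26 aprf1* for 106 of the 257, *ld* for 59, *efl2 efl4* for 48 and *fld* for 44. The largest fall was in *ld* for 45 of the 145, in *efl2 efl4* for 40, in *fld* for 31 and in *sdg26 aprf1* for 29. Although *sdg26 aprf1* had the smallest differences at *FLC*, *FT* and *SOC1*, it did not have the smallest median over the genes that rose. Whether these medians differ was not tested.

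The replicates allowed the average to be read once in each, since each replicate number holds 1 sample of all 5 genotypes. The 50 genes with the largest average rise in replicate 1 had a median log2FC of 1.59 there and 0.84 in replicate 2, where 45 of the 50 were above 0. The 50 largest falls of replicate 1 had a median of −1.58 there and −0.89 in replicate 2, where 41 were below 0. Chosen in replicate 2, the 50 largest rises went from a median of 1.72 to 1.03 in replicate 1, with 39 above 0, and the 50 largest falls went from −1.33 to −0.82, with 39 below 0. Across all genes tested, Pearson's correlation of the replicates was 0.374 and Spearman's 0.244, as a description of genes that are not independent. *FLC* was at 6.22 and 6.21 in the replicates, *SOC1* at −2.84 and −3.24, *FT* at −2.32 and −2.41, and *MAF5* at 2.41 and 2.27.

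**Figure D4:**
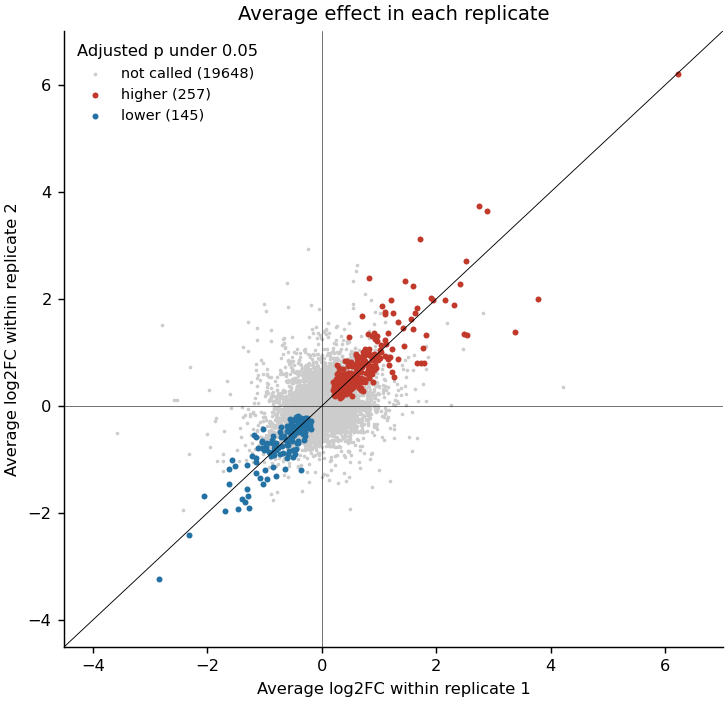
Average log2FC of the 4 mutants against Col-0 within replicate 1 (horizontal axis) and within replicate 2 (vertical axis), 1 point per gene tested, with the line of equality. *FLC* lies on the line at 6.2 in both, *SOC1* and *FT* close to it, and the genes not called (grey) form a round cloud about 0.

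Among the gene lists that fit seedlings and this pathway, few members were called, and the counts are to be read beside the 1.28% and 0.723% of all genes. Of 30 photosystem and antenna genes, 3 rose and 0 fell, with a list median of 0.07. The 3 were *LHCB1.1*, *LHCB1.2* and *LHCB1.3*, neighbours on chromosome 1 that encode the main light-harvesting protein of photosystem II. *LHCB1.3*, the most abundant, had 84519.8 and 96122 normalised reads in Col-0, 106756 and 144708 in *ld*, 114938 and 129811 in *fld*, 97609 and 111801 in *sdg26 aprf1* and 98270.2 and 106459 in *efl2 efl4*, and rose by 0.32 ± 0.06 (SE; limma adjusted *p* = 0.0293). *LHCB1.2* rose by 0.58 ± 0.08 (SE; limma adjusted *p* = 0.00615) and *LHCB1.1* by 0.35 ± 0.07 (SE; limma adjusted *p* = 0.0419). The call was lost under 14 of 27 alternatives for *LHCB1.1*, 11 for *LHCB1.3* and 6 for *LHCB1.2*, and without the replicate block or without either Col-0 sample for all 3. Between 79.5% and 89.4% of their 50-base exon windows occur once in the genome, so that reads may be split among the copies. *LHB1B1*, a further copy on chromosome 2 that was looked at after its values were seen, had 1855 and 2709.7 normalised reads in Col-0, 4498 and 6795 in *ld*, 4279 and 5712 in *fld*, 2734 and 3266 in *sdg26 aprf1* and 2959 and 3500.4 in *efl2 efl4*, and rose by 0.84 ± 0.07 (SE; limma adjusted *p* = 3.33e-04).

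Of 16 genes of salicylic acid defence tested, 2 fell and 0 rose. *PBS3*, an enzyme of salicylic acid synthesis, had 97 and 51.4 normalised reads in Col-0, 41.4 and 16.3 in *ld*, 41.7 and 24 in *fld*, 58.4 and 45.7 in *sdg26 aprf1* and 34.9 and 23.9 in *efl2 efl4*, with a log2FC of -1.06 ± 0.20 (SE; limma adjusted *p* = 0.026). *PR2*, a glucanase, had 269 and 193 normalised reads in Col-0, 93.8 and 67.3 in *ld*, 125 and 156 in *fld*, 154 and 157 in *sdg26 aprf1* and 195 and 119 in *efl2 efl4*, with one of -0.83 ± 0.17 (SE; limma adjusted *p* = 0.0398). The marker *PR1* ranged from 4.04 in *ld* to 228 in *sdg26 aprf1*, and its log2FC of -2.04 ± 0.70 did not pass (limma adjusted *p* = 0.204). The calls of *PBS3* and *PR2* were each lost under 11 alternatives, of 26 and 27. The list median was −0.08. Of 12 rapid stress genes, 1 rose, *WRKY40*, a transcription factor induced by wounding and pathogens. It had 527 and 141 normalised reads in Col-0, 997 and 239 in *ld*, 704 and 279 in *fld*, 817 and 376 in *sdg26 aprf1* and 702 and 232 in *efl2 efl4*, with an average of 0.78 ± 0.15 (SE; limma adjusted *p* = 0.029), a call lost under 10 of 27 alternatives. The replicates 1 were above the replicates 2 in all 5 genotypes, and each genotype differed more between its replicates than the mutants did from Col-0 on average. *TCH4*, a touch-induced wall enzyme, was more than 1 higher on average (1.62 ± 0.47) and did not pass (limma adjusted *p* = 0.133), its Col-0 samples being 1622 and 516.

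Glucosinolates are the sulfur compounds of *Arabidopsis* and its relatives. Of 8 genes of their breakdown, 2 rose, *HOL2* and *ESP*, and of 20 of their synthesis 1 did, *CYP79F2*, by 0.40 ± 0.05 (SE; limma adjusted *p* = 0.00551), with medians of 0.05 and −0.03. In the mitotic list, *CYCB1;1*, a cyclin of dividing cells, rose by 0.43 ± 0.09 (SE; limma adjusted *p* = 0.0417), a call lost under 18 of its 27 alternatives, and 0 of the other 7 genes were called. Of 15 iron genes, 1 fell on average (*bHLH38*), although 8 differed among the mutants. No member was called in the lists of gibberellin oxidases (7 tested), PIF growth genes (8), cold response (7), heat-shock proteins (4), jasmonate (15), sulfate uptake (12), phenylpropanoids and flavonoids (16) or root markers (12). The 7 reference genes, among them *PP2AA3*, *UBQ10* and *ACT2*, had log2FC values between −0.06 and 0.11, and none was called.

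**Figure D5:**
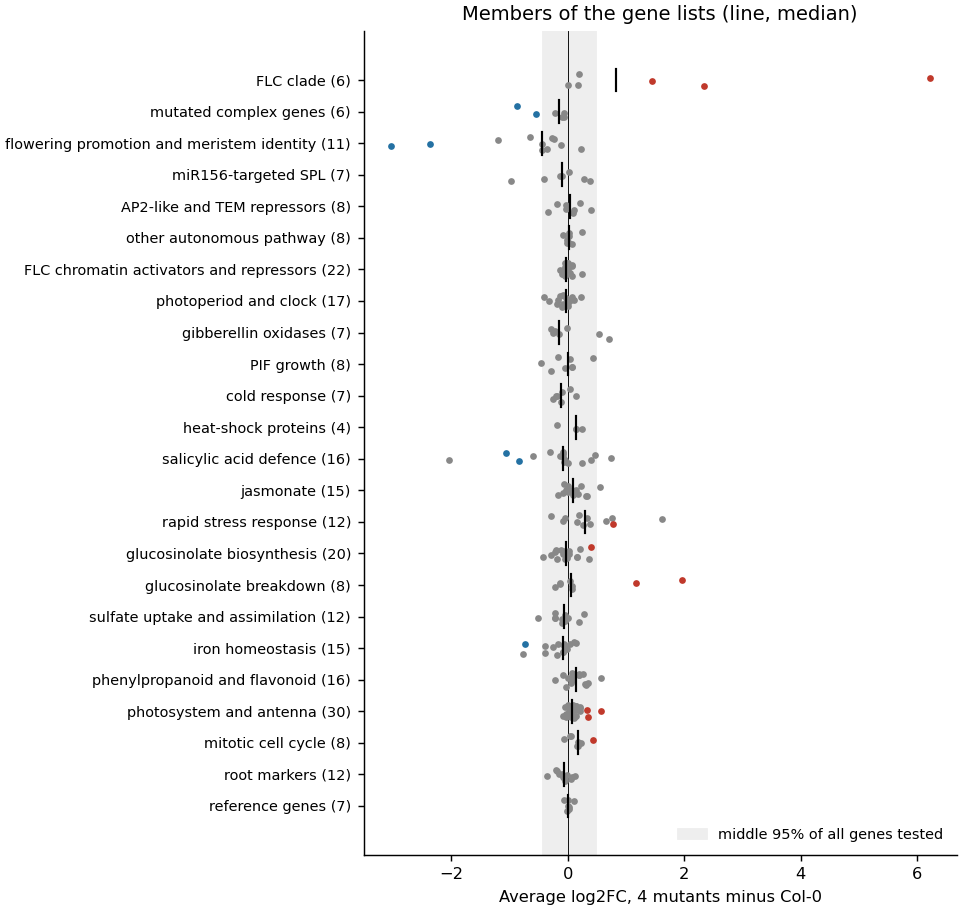
Average log2FC (horizontal axis) of the tested members of 24 gene lists, with the number tested in brackets, 1 point per gene, red for genes called higher, blue for genes called lower and a line at the list median. The grey band holds the middle 95% of all genes tested, −0.43 to 0.48. Apart from the *FLC* clade, whose median is 0.82, and the list of flowering promotion and meristem identity (−0.44), all list medians lie inside it.

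By words of the annotated product, a grouping made after the values were seen, 10 of 157 genes matching disease resistance terms rose and 1 fell. This is 6.37% and 0.637% beside 1.28% and 0.723% of all genes. The median log2FC of the 157 was 0.03. The words also matched AT4G38700, 1 of the 10 rises, a dirigent-like protein annotated as disease resistance-responsive. The 10 include *ADR1*, a helper of immune receptors (log2FC 0.35), *RRS1*, a receptor of bacterial effectors (0.27), and AT1G72840 (0.75), all called in limma, while the fall was that of AT1G58602 (-0.29). Of 44 genes matched as receptor-like proteins, 2 rose and 4 fell. The falls were *RLP38*, the neighbours *RLP32* and *RLP33* at -1.10 and -1.39, and *TIR* (AT1G72930), a Toll/interleukin-1 receptor-like protein. Receptor kinases gave 6 rises and 6 falls of 300, and F-box proteins 4 rises and 0 falls of 167. Of 25 xyloglucan endotransglucosylases, which remodel the cell wall, 3 rose, *XTH9* (0.62), *XTR6* (0.55) and *XTH7* (0.26). Sequence relatives in these families can share reads.

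Of 284 non-coding RNAs tested, 8 rose and 1 fell, 2.82% and 0.352%. AT1G05397, noticed for its values, had 1 and 0 normalised reads in Col-0, 12.1 and 17.3 in *ld*, 22.9 and 12 in *fld*, 12.1 and 15.9 in *sdg26 aprf1* and 6.97 and 6.96 in *efl2 efl4*. With a single read in Col-0 it entered the test through its mutant samples, and its log2FC of 3.25 depends on the pseudocount. AT1G13448 rose from a Col-0 mean of 43.2 normalised reads to 122 in the mutants (log2FC 1.43, limma adjusted *p* = 6.86e-04). Among 20045 pairs of neighbouring tested genes, 17 pairs held genes called in the same direction. They include *FLC* with AT5G10150, *MAF4* with *MAF5*, the *LHCB1* genes, *RLP32* with *RLP33*, *SDG26* with AT1G76720, and *PR2* with *AGL16*, a MADS-box gene at -0.33. The count is to be read beside the 1.28% of all genes that rose and the 0.723% that fell. The number of pairs expected from these shares was not worked out, and the *LHCB1* copies can share reads. Across the 5 chromosomes, 0.884% to 1.55% of the genes tested rose and 0.639% to 0.783% fell.

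Leaving out each of the 10 samples in turn kept 37 of the 402 genes called in every fit, 25 rises and 12 falls, and 20 of these were also called without the replicate block. Beside *FLC*, *MAF5*, AT1G77960, AT5G44980, *HOL2*, AT4G29990, *EMB975* and *ESP*, the rises include *MES18*, a methylesterase (1.14), *HSD3*, a hydroxysteroid dehydrogenase (0.94), *EXLA1*, an expansin-like protein (0.92), and *LHB1B1*. Beside *SOC1*, *EXLB1*, *FLD* and AT5G11330, the falls include *LURP1*, a gene induced by an oomycete (-0.91), *BRG2*, a RING-domain protein (-0.78), and *TLL1*, a lipase (-0.53). These values are average log2FC, and the genes were chosen after the fits. *FLC*, AT1G77960, *HOL2* and AT4G29990 were called in all 27 alternatives tried.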

How the data were processed

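RNA-seq was measured in 10 samples, 2 for each of 5 genotypes. Single-ended reads of 50 bases were aligned by the authors to TAIR10 with HISAT2, counted on exons with featureCounts and normalised with edgeR, and the deposited signal is normalised reads per gene in 4 tables, 1 per mutant, that repeat the Col-0 samples. The gene annotation and strand setting are not given in the sources used here. The smallest positive values were rounding residue, so the size of 1 read was found for each column by a search over steps; at least 98.98% of values were then within 0.1 of a whole read, and Col-0 reads were identical in the 4 tables. The recovered reads were scaled together by TMM.

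Log2(normalised reads + 1) was fitted by limma (3.58.1, trended prior variance) with genotype and replicate number, on genes averaging 10 or more. The mean of the 4 mutants was contrasted with Col-0, and an F test compared the mutants. *P*-values are two-sided and Benjamini-Hochberg adjusted over 20050 genes. The replicate numbers were used as pairs because the differences between replicates 1 and 2 correlated in 10 of 10 pairs of genotypes, at 0.371 to 0.611. Alternatives were edgeR (4.0.16), DESeq2 (1.42.0), no block, other scalings, pseudocounts, filters, models and thresholds, and leaving out each mutant or sample. The fit was tested on simulated data. R 4.3.3 and Python 3.11.15 with matplotlib 3.10.9 were used.

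Named genes were the *FLC* clade, *FT*, *SOC1* and the mutated genes, the 15 largest rises and 15 largest falls called without overlap of the samples and with at least 20 normalised reads in the higher group, up to 4 called genes per list, and the 8 called genes that differed most among mutants. Members and lists were chosen with earlier results of these data known. Positions and CArG boxes were read from the RefSeq annotation of TAIR10.1, in which all IDs were found by locus tag.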

Additional observations from a re-analysis of the deposited data

Results flagged for a closer look

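By an F test in limma, the 4 mutants differed for 17 of the 53 genes named and for 2.53% of all genes tested. Up to 8 of the 53 were named because they differed most in this same test, so the 17 are a description. For the mutated genes the adjusted *p* was 1.49e-07 for *FLD*, 1.77e-06 for *SDG26*, 0.000365 for *LD* and 0.00807 for *APRF1*, each low in the line in which it is mutated. For the flowering genes it was 0.000114 for *FLC*, 0.000228 for *SOC1* and 0.0176 for *FT*, with *sdg26 aprf1* nearest to Col-0 in all 3.

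It was 8.77e-07 for AT3G05945 and 9.13e-05 for *bHLH38*, both low in *efl2 efl4* only. It was 1.34e-06 for AT5G11330, low in *fld* and *sdg26 aprf1*, and 5.03e-06 for *ESP*, high in the same mutants. AT1G31690, at 2.04e-05, was lowest in *efl2 efl4*. Differences in the size of a rise or fall were found for *EXLB1* (0.00202), *EMB975* (0.00755), *HOL2* (0.00977), *LHCB1.2* (0.0111) and *CYP79F2* (0.0123). Of these 17 genes, 15 were also called on average over the mutants.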

How the results depend on the processing

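*FLC* was called under all 27 alternatives. Left out 1 at a time, the 10 samples moved its log2FC between 6.18 and 6.24. The range was 2.23 to 2.46 for *MAF5*, −2.48 to −2.25 for *FT* and −3.24 to −2.84 for *SOC1*. In these fits the number of rises ran from 58 to 370, of falls from 21 to 214 and of genes different among the mutants from 104 to 814. Both lowest counts of genes called on average came without the second Col-0 sample and both highest without the first *sdg26 aprf1* sample.

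Without the replicate block there were 24 rises, 13 falls and 19 genes different among the mutants, and with no filter on low values 142, 80 and 220. With the 8 mutant samples as 1 group there were 44 rises and 18 falls, and *MAF5* (2.34), *FT* (−2.36) and *SOC1* (−3.04) kept their log2FC but missed the threshold. The thresholds of the study, an unadjusted *p* under 0.01 and an absolute log2FC of 1 or more, gave 84, 40 and 234. An absolute log2FC of at least 1 with an adjusted *p* under 0.05 gave 53, 24 and 131. For the genes different among the mutants, the limit of 1 was put on the largest minus the smallest log2FC of the 4 mutants. The DESeq2 test called 161 rises and 120 falls. The mean of 3 mutants without *ld* gave 112 rises and 74 falls, without *fld* 96 falls, without *sdg26 aprf1* 222 falls, and without *efl2 efl4* 62 genes different among the mutants. The cause of these shifts was not tested.

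Of 1306 refits of the other 49 named genes, 1063 kept the direction and the side of the threshold, 230 lost the call, 1 gained it and 12 turned direction. The turns were *EFL4*, which lay between −0.312 without the first Col-0 sample and 0.117 without the second, *APRF1*, between −0.192 and 0.0713 in the same fits, *EFL2* (0.0937), AT3G05945 (0.0876), *SDG26* (0.0828) and *APRF1* (0.172) when the mutant that lowers each was left out, and *MAF3*, near 0 throughout, at −0.00626 without *fld*, −0.00324 without *ld*, and between −0.0960 and 0.122 with samples left out 1 at a time. With 2 samples in each genotype and 2 in Col-0, and few reads for *FLC* in Col-0 and *FT* in *fld*, the depth limits ratios for low genes more than for abundant ones.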
